A study of Mus musculus with 8 samples.

Results

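miR-202 is a microRNA of the gonads, and both strands of its hairpin were counted in the small RNA of mouse testis. The members are the entries of the microRNA class that carry the names mmu-miR-202-5p and mmu-miR-202-3p, 2 of the 730 microRNA entries and of the 20558 small RNAs listed. Testes of 8 adult C57Bl/6 males were sequenced, 1 library for each mouse. The SD mice (M1N, M2N, TN1 and TN2) are labelled as controls and received standard chow, and the WD mice (M1W, M2W, M3W and M5W) are labelled as experimental and received a Western-like diet rich in butter and sucrose from weaning. The labels give mating at 4 months of age and describe a lipid-rich diet for all mice, controls included, whereas the study's methods give chow to one group. Neither the labels nor the methods name an engineered allele. The question was which small RNAs of the testis differ between fathers on the 2 diets. A whole testis holds germ cells together with Sertoli, Leydig, vascular and blood cells, so in these data fewer cells of one type and less RNA per cell cannot be told apart.

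A microRNA gene is transcribed as a hairpin, from which Drosha and Dicer cut a short duplex. One strand of the duplex is usually kept in an Argonaute protein, where bases 2 to 8, the seed, direct it to messenger RNAs, and the other strand is usually lost. miR-202 is known for its expression in testis and ovary. In the fetal testis it is found in Sertoli cells, the somatic cells that carry the germ cells, and in the adult testis it has also been linked to spermatogonial stem cells and to entry into meiosis.

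The sequences show which strand each count refers to and how different the seeds of the arms are. They were taken from RefSeq (GRCm38.p6), written 5′ to 3′, with the seed in capitals, and both members were matched by name.
miR-202-5p: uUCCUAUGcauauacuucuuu
miR-202-3p: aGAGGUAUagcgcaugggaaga
let-7g-5p: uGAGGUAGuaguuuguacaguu
No other mouse microRNA in RefSeq has the seed of miR-202-5p. The seed of miR-202-3p is shared with let-7j, which was not analysed here. Its bases 2 to 7 are also those of the let-7 family, whose most abundant member in these testes, let-7g-5p, is shown for comparison. Counted from 1 at the 5′ end, the seeds differ by U8G, where miR-202-3p is given first. Outside the seed the resemblance ends: 7 of 22 positions are identical between miR-202-3p and let-7g-5p, which leaves them far beyond the 2 mismatches allowed in the alignment.

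The hairpin of Mir202 is 72 bases long. Its RefSeq sequence, with the bases of the 5p and then of the 3p arm in capitals, is shown because the arm ratio described below is measured on it.
Mir202: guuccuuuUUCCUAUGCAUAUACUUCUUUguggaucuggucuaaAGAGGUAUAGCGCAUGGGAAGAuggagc
The 5p arm covers bases 9 to 29 and the 3p arm bases 45 to 66. In the minimum free energy fold (-35.5 kcal/mol), 18 of the 21 bases of the 5p arm were paired with the 3p arm. In NCBIM37, the assembly also called mm9 to which the reads were aligned, the whole hairpin has 1 exact match, on the minus strand at chr7:147143588-147143659. The 5p arm lies at 147143631 to 147143651 and the 3p arm at 147143594 to 147143615, each with 1 exact match in the genome, so a read identical to either arm has a single place of origin. By the GENCODE M1 annotation the hairpin lies within an exon of Gm2044, a non-coding transcript of the same strand, and within an intron of Gm16201, a long non-coding RNA of the opposite strand. The nearest protein-coding gene is Utf1, which encodes a chromatin-associated factor of pluripotent cells and early spermatogonia, 12577 bases away.

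Libraries held between 2064562 and 3253798 counts, of which microRNAs took 9.23% to 12.7%. Over the 28 pairs of mice counts differed by a chi-square of 2.56 to 24.4 per degree of freedom, so no library appeared to have been entered again. The number of calls depended on which SD mice were the controls. Of the microRNA entries tested, 18.5% (84 of 453) passed an adjusted p of 0.05 by edgeR with M1N and M2N as the only controls of the WD mice. With TN1 and TN2 as the only controls it was 4.07% (18 of 442), in both cases adjusted over all small RNAs. These counts do not compare the pairs of SD mice with each other. In other values given below, TN1 and TN2 or M2W stood apart instead of M1N and M2N. The meaning of the letters M and TN was not given in the sources used here. Since no WD mouse is named TN, the diets cannot be compared within that set of names, and the fold changes, shares and arm ratios of miR-202 are also given against either pair of SD mice.

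miR-202-5p was among the most abundant microRNAs of these testes. Its count was 9943 in M1N, 12232 in M2N, 12997 in TN1 and 8488 in TN2, and 12414 in M1W, 15634 in M2W, 9169 in M3W and 14157 in M5W. Counting error at these depths was at most 1.09% of the value in any mouse. Levels are given as CPM, counts scaled to one library size with TMM factors. By mean CPM it ranked 4 of the 366 mature microRNAs that passed the filter on low counts. miR-34c-5p, miR-19b-3p and miR-34b-5p ranked above it. The miR-34 family members among these are known from meiotic and postmeiotic germ cells, and miR-19b-3p belongs to the miR-17-92 cluster. miR-191-5p and miR-34a-5p followed. The order was not the same in each mouse. miR-34b-5p, with 4240.1 to 5677 CPM, was above miR-202-5p in every mouse but M2W. miR-191-5p, with 2298 to 6573 CPM, was above it in M1N and M2N and below it in the other 6 mice. The ranges of both over the 8 mice overlapped that of miR-202-5p, which was 3408 to 6856 CPM. Mature microRNAs are of nearly one length, so their counts were compared directly, without regard to differences in ligation between sequences.

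The rank within a mouse was 4 in 5 of the 8 mice. It was 10 in M1N, 9 in M2N and 2 in M2W. Among all small RNAs, piRNAs included, miR-202-5p ranked 15 in M1N, 11 in M2N, 2 in M2W and 5 in each of the other mice.

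miR-202-3p was a minor species. Its count was 588 in M1N, 567 in M2N and 314 in TN1, and 323 in M1W, 377 in M2W, 230 in M3W and 269 in M5W. TN2, the smallest library, had the lowest count. M1N and M2N had the highest, and no other mouse exceeded 377. By mean CPM it ranked 91 of 366, and within single mice its rank among the mature microRNAs listed was between 79 and 109.

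**Figure D1:**
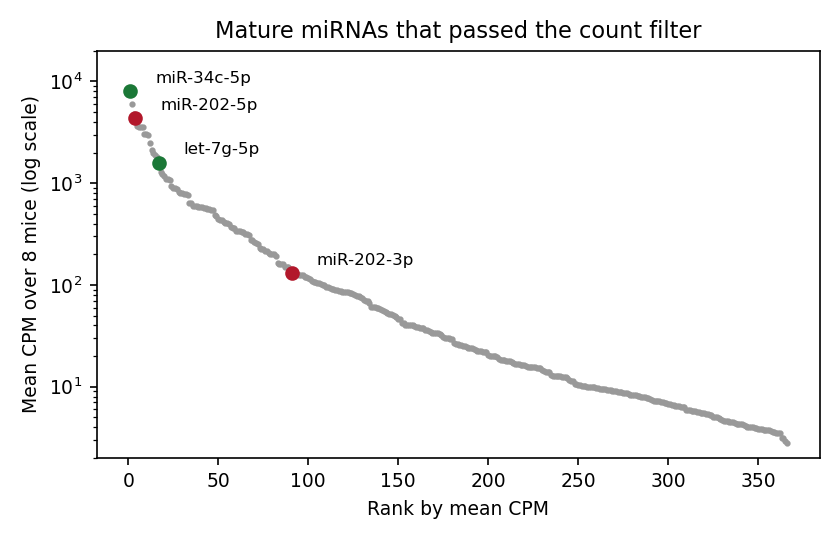
Mean CPM over the 8 mice (vertical axis, log scale) against rank (horizontal axis) for the 366 mature microRNAs that passed the count filter, with each grey point 1 microRNA. miR-202-5p is at rank 4, close to miR-34c-5p at rank 1, while miR-202-3p is at rank 91, below let-7g-5p at rank 17.

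Between the diets, miR-202-5p was higher on average in WD mice, and the difference did not pass the test. Its level was 3408, 3900.2, 4094 and 3931 CPM in M1N, M2N, TN1 and TN2, and 4081, 6856, 4225 and 4404 CPM in M1W, M2W, M3W and M5W. In 3 of the 4 WD mice it was above every SD mouse, and M1W was just below TN1, so the groups overlapped. WD mice had a mean of 4891 ± 1316 CPM (SD, n = 4), and SD mice of 3833 ± 296 CPM (SD, n = 4). This corresponds to a log2 fold change of 0.35 with a standard error of 0.19, and its Benjamini-Hochberg adjusted p over the 16955 small RNAs, from the quasi-likelihood test of edgeR, was 0.391. On log2 CPM, an exact permutation test over 70 assignments (two-sided) gave p = 0.0571, where the smallest p that 4 mice against 4 allow is 0.0286, and p = 0.200 after Benjamini-Hochberg adjustment over 7 exact tests of the arms (CPM, both shares and the arm ratio). M2W carried much of the difference. Without it the log2 fold change was 0.15, and the other WD mice had 4236 ± 162 CPM (SD, n = 3).

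miR-202-3p pointed the other way, again without passing the test. Its level was 201.5, 180.8, 98.9 and 102.4 CPM in M1N, M2N, TN1 and TN2, and 106.2, 165.3, 106.0 and 83.7 CPM in M1W, M2W, M3W and M5W. M1N and M2N were above every WD mouse, whereas TN1 and TN2 lay within the range of the WD mice. WD mice averaged 115 ± 34.99 CPM (SD, n = 4), compared with 146 ± 52.96 CPM (SD, n = 4) for SD mice. The log2 fold change was -0.34 with a standard error of 0.25, and edgeR gave an adjusted p = 0.507. The exact permutation test gave p = 0.343, and the same after adjustment over the 7 tests.

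Neither arm was called at an adjusted p under 0.05, and in neither did the groups separate in CPM. As a share of all small RNA counts, without TMM factors, miR-202-5p did separate, with 0.306% to 0.419% in SD mice and 0.423% to 0.682% in WD mice, for which the exact two-sided permutation p was 0.0286, the smallest possible, and 0.200 adjusted over the 7 tests. The groups did not overlap on that measure in 7.66% of the 418 microRNA entries tested. For calls the background was the same as for the arms: 0% of the 16955 small RNAs tested were called by edgeR, as by DESeq2 and limma-voom. Without adjustment, edgeR gave 2474 small RNAs a p of up to 0.05, among them 16.5% of the 418 microRNA entries tested but neither arm. In CPM, the groups did not overlap in 8.37% of these entries.

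**Figure D2:**
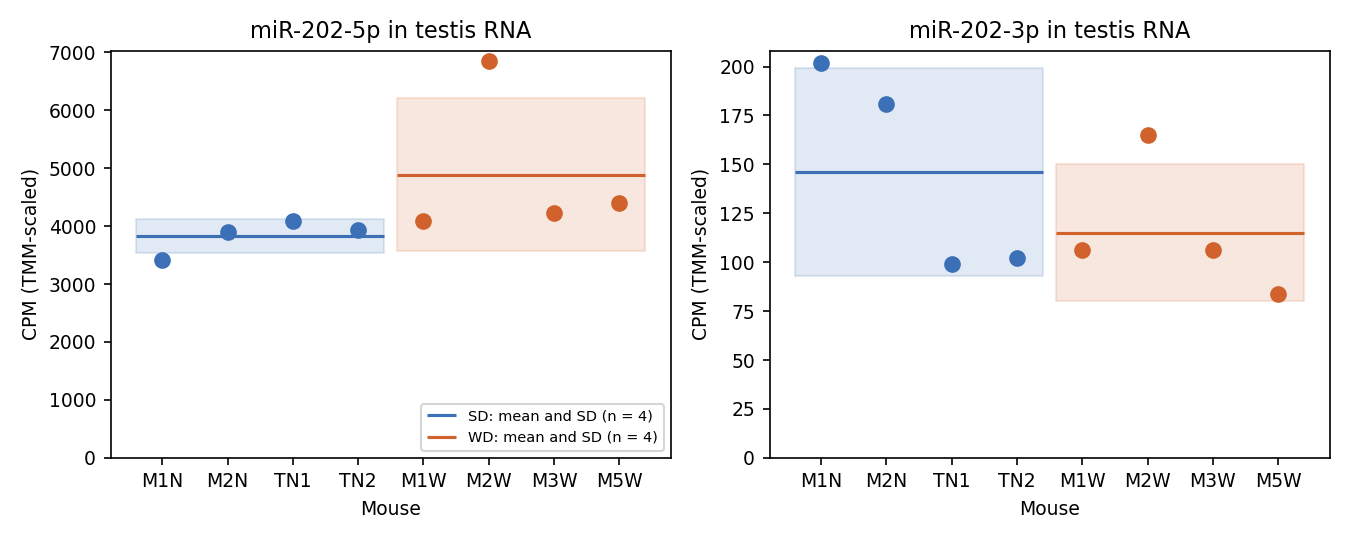
Level of miR-202-5p (left) and miR-202-3p (right) in CPM by mouse, with each point 1 mouse and the line and band the mean and SD of each diet (n = 4). M2W stands above the other WD mice for the 5p arm with 6856 CPM, and M1N and M2N stand above the other SD mice for the 3p arm.

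In edgeR's fit, the choice of control mice changed the sign of the estimate and the call for the 3p arm. Against M1N and M2N alone it was lower, at -0.73 ± 0.22 (SE) on the log2 scale, with an adjusted p = 0.0203 in edgeR's test, a call it had in common with 18.5% of the microRNA entries. Against TN1 and TN2 alone the same value was 0.19 ± 0.21 (SE), with an adjusted p = 1.000 by edgeR, so it was smaller than its standard error. As a share of microRNA reads, given below, the 3p arm was not higher in WD mice against either pair. For the 5p arm the values were 0.42 ± 0.22 (SE, edgeR's adjusted p = 0.184) and 0.29 ± 0.19 (SE, adjusted p = 1.000) against the pairs in the same order, so its direction was the same and it was called against neither.

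Expressed as a share of all microRNA reads of the mouse, a measure that needs no scaling between libraries, miR-202-5p took 2.85% in M1N, 3.53% in M2N, 4.29% in TN1 and 4.45% in TN2. In WD mice it took 4.45% in M1W, 5.38% in M2W, 4.08% in M3W and 4.66% in M5W. The shares of TN1 and TN2 lay within those of the WD mice and the shares of M1N and M2N below all others. The 95% Wilson intervals were narrow, for example 2.80% to 2.91% in M1N and 5.30% to 5.46% in M2W, and cover counting error only, since PCR copies are not independent molecules. The mean was 4.64% ± 0.544 (SD, n = 4) in WD mice and 3.78% ± 0.739 (SD, n = 4) in SD mice, a difference of 0.861 percentage points (exact permutation test, two-sided, p = 0.143). Against M1N and M2N alone the difference was 1.45 points and against TN1 and TN2 alone 0.271 points. miR-202-3p took between 0.0886% and 0.169% of microRNA reads, with 0.109% ± 0.0176 (SD, n = 4) in WD mice and 0.138% ± 0.0330 (SD, n = 4) in SD mice (exact permutation test, two-sided, p = 0.171). This difference was -0.0571 points against M1N and M2N alone and -0.000682 points against TN1 and TN2 alone. Both of these permutation tests had p = 0.240 when adjusted over the 7.

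The ratio of the arms is read within each library and is independent of its depth. The 5p arm exceeded the 3p arm 16.9-fold in M1N and 21.6-fold in M2N. In TN1 and TN2 it exceeded it 41.4-fold and 38.4-fold. In the WD mice the ratio was 38.4 in M1W, 41.5 in M2W, 39.9 in M3W and 52.6 in M5W. M1N and M2N therefore had less than any other mouse, and TN1 and TN2 had ratios close to those of M1W, M2W and M3W. M2W, whose level of both arms was raised over the other WD mice, had an ordinary ratio.

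Put as a percentage of the reads of both arms, the 3p arm took 5.58% in M1N (95% Wilson interval 5.16% to 6.04%) and 4.43% in M2N (4.09% to 4.80%). In the other 6 mice it took between 1.86% and 2.54%, and the highest upper limit among them was 2.89%. Between the diets the log2 ratio of 5p to 3p was 5.42 ± 0.20 (SD, n = 4) in WD mice and 4.79 ± 0.63 (SD, n = 4) in SD mice, a difference of 0.63 that did not exceed the spread (exact permutation test, two-sided, p = 0.114, adjusted over 7 tests p = 0.240). It was 1.16 against M1N and M2N alone and 0.10 against TN1 and TN2 alone. Among 101 precursors with both arms tested, the groups did not overlap in the arm ratio in 3.96%, and miR-202 was not one of these. A change of arm use with diet was not detectable with these mice.

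**Figure D3:**
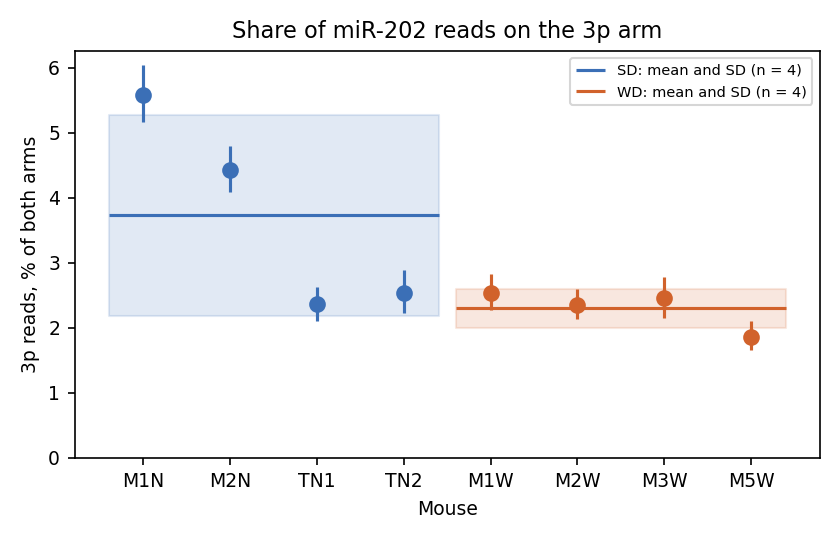
Percentage of miR-202 reads that fall on the 3p arm, by mouse. Points are mice, vertical bars the 95% Wilson intervals (counting error), and the line and band the mean and SD of each diet (n = 4). M1N at 5.58% and M2N at 4.43% lie above the other 6 mice, which are between 1.86% and 2.54%.

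Other hairpins were read in the same way. Of the 101 precursors with both arms tested, 16 were more uneven than miR-202, whose log2 ratio of major to minor arm had a mean of 5.10, and the median was 2.40. Among the 26 whose minor arm had a mean count of at least 100, a limit that itself leaves out uneven hairpins, only miR-878 was more uneven, at 5.63, and the median was 2.18.

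The log2 ratio of 5p to 3p of miR-202 was lower in M1N and M2N than in TN1 and TN2, by a difference of -1.06. Among the 101 precursors, 53 had a lower ratio of 5p to 3p in M1N and M2N, with a median difference of -0.01. In 11 of them, miR-202 included, it was at or below -1.06, and in 17 the difference was at least as large in either direction. Among the 26 with the deeper minor arm, 19 were lower in M1N and M2N, with a median of -0.63. miR-878 and miR-465c, both microRNAs of X-linked clusters expressed in testis, differed by -1.84 and -1.32 and were the only others of the 26 at or below miR-202. The picture depends on which arm is placed on top. As a ratio of major to minor arm, 12 of the 26 were lower in M1N and M2N, with a median of 0.12, and only miR-202 was at or below -1.06. miR-878 and miR-465c, whose minor arm is 5p, were higher on that scale. The value of miR-465c rested on M2N: M1N alone differed from TN1 and TN2 by -0.46, whereas M2N differed by -2.17. For miR-202 the corresponding values were -1.24 and -0.89. With 2 mice a pair these values are descriptions without a test, and miR-878 and miR-465c were singled out after their values were seen.

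**Figure D4:**
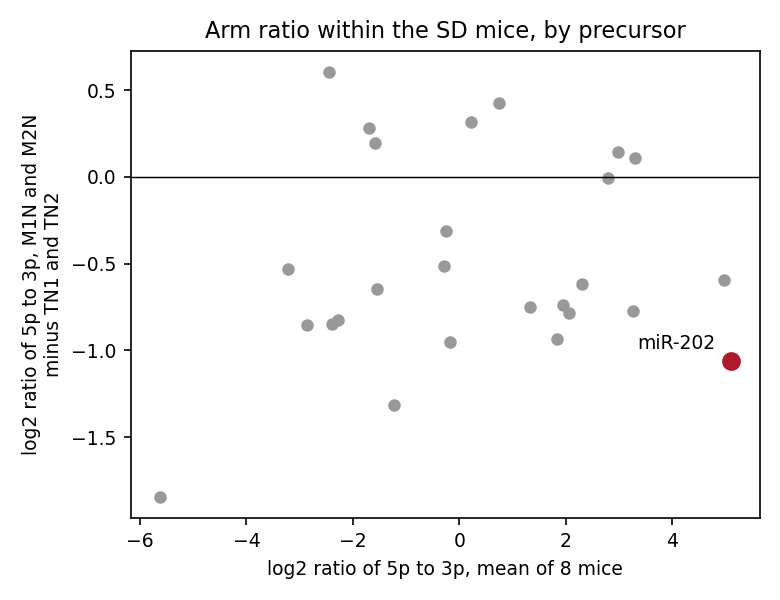
Difference in the log2 ratio of 5p to 3p between M1N and M2N and the pair TN1 and TN2 (vertical axis) against the mean log2 ratio of 5p to 3p over the 8 mice (horizontal axis), for 26 precursors with a mean count of at least 100 on the minor arm. Of the 26 points 19 are below 0. miR-202, in red, is at -1.06, and 2 precursors are lower.

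Over the 8 mice, many microRNAs kept a more constant proportion to miR-202-5p than its partner arm did. Likeness was measured as the SD over the 8 mice of the log2 ratio of 2 counts, which is small when they keep a constant proportion. Over 165 mature microRNAs with a mean count of at least 100, the closest to miR-202-5p were miR-101a-3p (0.10), miR-497-5p (0.12), miR-881-5p (0.13), miR-210-3p (0.15) and miR-26a-5p (0.15). miR-210-3p is the microRNA known for induction by hypoxia. miR-202-3p came at place 131, with an SD of 0.55. Without M1N and M2N the log2 ratio of the arms was 5.38 ± 0.17 (SD, n = 6), so this spread came from those 2 libraries. An SD of 0.55 or more was found for the arms of 37 of the 101 precursors, and the median was 0.48. Among the 26 with the deeper minor arm it was found for 5, miR-202 included, and the median was 0.42. Like miR-202-5p, these 5 microRNAs were highest in M2W: miR-101a-3p had 904 CPM there and 524 to 586 CPM in the other WD mice. Their log2 fold changes were between 0.22 and 0.41, and between 0.16 and 0.51 against either pair of SD mice alone. Without M2W they were 0.20 for miR-101a-3p, 0.02 for miR-497-5p, 0.08 for miR-881-5p, 0.09 for miR-210-3p and 0.08 for miR-26a-5p. None passed edgeR's test with all SD mice, the smallest adjusted p being 0.340 for miR-101a-3p.

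The closest to miR-202-3p were miR-125b-5p (SD of the log2 ratio 0.09), miR-547-3p (0.11), let-7g-5p (0.14), miR-342-3p (0.15) and miR-340-3p (0.15). This comparison was added after the arms had been seen to differ. Their levels were high in M1N, M2N and M2W: miR-125b-5p had 4488, 4137 and 4285 CPM in these mice and 1961 to 2451 CPM in the other 5. let-7g-5p, which shares bases 2 to 7 with miR-202-3p, had 2309, 1985 and 2238 CPM in the same mice and 1183 to 1321 CPM elsewhere. Over the 8 mice the proportion of let-7g-5p to miR-202-3p was thus held more closely than that of the arms of Mir202 to each other. All 8 points of each such comparison share their libraries and depth, and no test is given.

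The let-7 family as a whole had 21 mature entries, of which 16 passed the filter, and none was called in either direction by edgeR. Of the 16 log2 fold changes 12 were above and 4 below 0, with a median of 0.11, beside 0.03 over all microRNA entries tested. The summed level of the family was 6683 CPM in M1N and 6261 CPM in M2N, and 4429.6 CPM in TN1 and 4192 CPM in TN2. In M2W it was 7831 CPM, and in the other WD mice 4128 to 5013 CPM. All 9 listed microRNAs that share bases 2 to 7 with miR-202-3p were tested, and each of them was more abundant than miR-202-3p except let-7e-5p, let-7i-5p and miR-98-5p. Besides let-7g-5p, let-7a-5p, let-7d-5p, let-7e-5p and let-7f-5p were highest in M1N, M2N and M2W. This was not so for let-7b-5p, let-7c-5p, let-7i-5p and miR-98-5p. The mean level of let-7g-5p was 1473 ± 512 CPM (SD, n = 4) in WD mice. In SD mice it was 1699.6 ± 536 CPM (SD, n = 4).

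Markers of the cell types in a testis were read beside these values. Over the list for meiotic and postmeiotic germ cells (miR-34b, miR-34c and the miR-449 family) the summed level was 13509.9 to 18265 CPM in SD mice and 13383 to 18237 CPM in WD mice. Of its 8 tested entries none was called, and their median log2 fold change was -0.03. miR-140, which is enriched in the developing testis, differed between the SD pairs as miR-202-3p did: the sum of its arms was 759 CPM in M1N, 547 CPM in M2N, 348 CPM in TN1 and 308 CPM in TN2. In WD mice it was 287 to 501 CPM, with the highest value in M2W. miR-140-3p, its major arm, had a log2 fold change of -0.47 (adjusted p = 0.433 in edgeR's test), which was -0.92 against M1N and M2N alone and 0.19 against TN1 and TN2 alone. The list for endothelium and stroma (miR-126, miR-143, miR-145, miR-199 and miR-214) was also highest in M2W, at 9751 CPM, and reached 5145 to 7350.5 CPM in SD mice and 5211 to 6792 CPM in the other WD mice. It was high in M1N and M2N as well, with 7326 and 7350.5 CPM. The part of these cell types in the levels of miR-202 was not tested.

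Blood microRNAs (miR-451, miR-144, miR-486, miR-142, miR-223 and miR-150) summed to 335 to 574 CPM in SD mice and 277 to 575 CPM in WD mice, with the highest values in M1N and M2W. The list for spermatogonia and pluripotent cells, made up of the miR-290 and miR-302 clusters with miR-221 and miR-222, had 611 CPM in TN1, 572 CPM in TN2 and 92.7 to 162 CPM in the other 6 mice. The most abundant tested entry of this list, miR-221-3p, did not share that difference. It had 58.6 and 41.7 CPM in TN1 and TN2, and 52.4 and 56.4 CPM in M1N and M2N. Of the 19 entries listed 8 were tested, with 3 log2 fold changes above and 5 below 0. Their median was -1.13, and none was called. The muscle list was near the floor, between 4.61 and 12.8 CPM, and neither entry of the liver microRNA miR-122 passed the filter.

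Over the 8 mice the coefficient of variation of CPM was 24.0% for miR-202-5p, close to the median of 25.1% over 166 mature microRNAs with a mean count of at least 100. M2W set this value: without it the coefficient of variation of miR-202-5p was 7.86%. It was 34.2% for miR-202-3p, where 48 of the 166 varied more, and 36.4% without M2W.

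**Figure D5:**
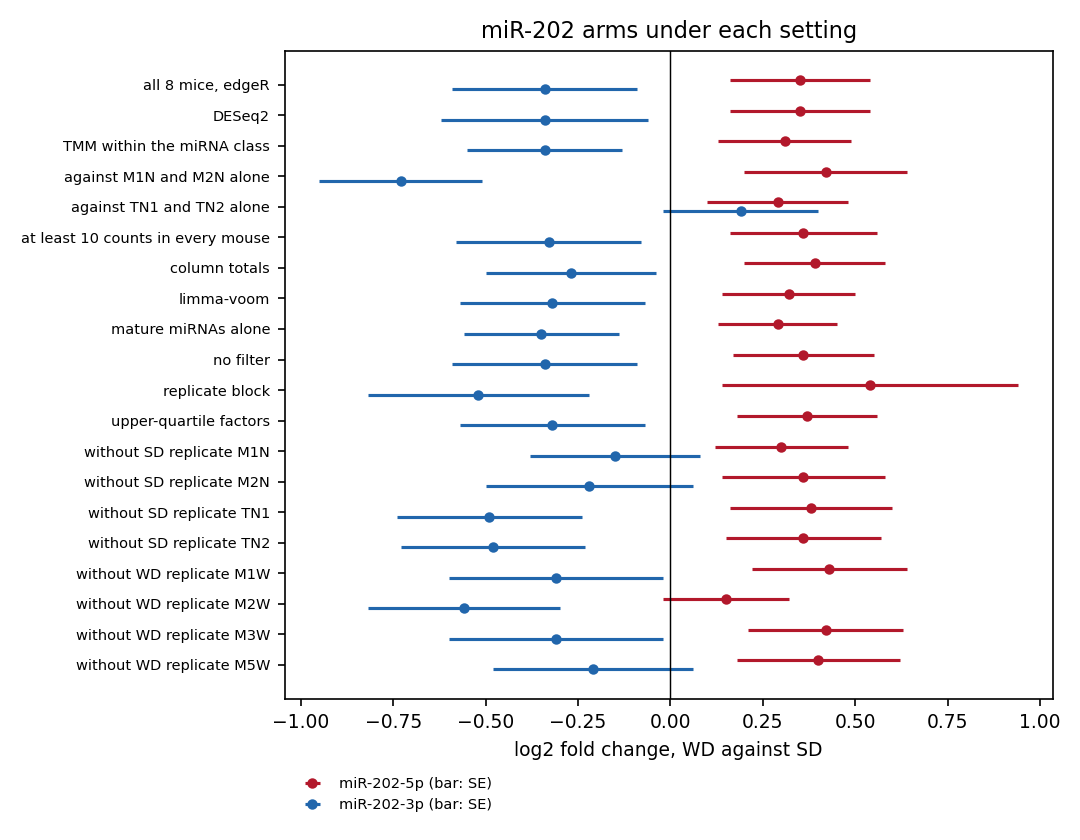
Log2 fold change of miR-202-5p and miR-202-3p, WD against SD, under each way of processing and each choice of mice, with bars for the standard error. The 5p arm stays above 0 in each, between 0.15 without M2W and 0.54 with the replicate block. The 3p arm ranges from -0.73 against M1N and M2N alone to 0.19 against TN1 and TN2 alone. The replicate block holds M1N, M2N, M1W and M2W only, matched by number, and its 5p value has a standard error of 0.40.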

How the data were processed

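Small RNA from the testes of 8 mice was sequenced on a SOLiD instrument. Reads were cut by the authors at the adaptor or at 31 bases. Bowtie placed them on mm9 (2 mismatches), and names came from miRBase 18, Rfam and a non-coding RNA database. The authors deposited raw counts, 1 column per mouse. How reads that match more than once were treated, which program counted them and the release of Bowtie are not given in the sources used here. The submitters' processing notes also name DESeq.

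The deposited counts were fitted over the whole table with edgeR 4.0.16 in R 4.3.3. TMM factors, column totals as library sizes, filterByExpr (minimum count 10, minimum total 15), diet as the only term and glmQLFTest, two-sided, were used, with Benjamini-Hochberg adjustment over the 16955 small RNAs tested. Standard errors were derived from the F statistic. The labels give each library its own name and mention no pooling, and p-values measure the spread between these libraries. Single values were compared by exact permutation over 70 assignments, or over all those possible where mice were left out. Alternatives were DESeq2 1.42.0, limma-voom 3.58.1, other scalings and filters, either pair of SD mice, a replicate block and each mouse left out. The hairpin was folded with RNAfold 2.7.2.

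The members, lists and tests were chosen with earlier results of these data known. The microRNAs named were the arms, the most abundant one, the 2 next above and below miR-202-5p by mean CPM, the 5 closest to it in pattern, those that share bases 2 to 7 with miR-202-3p (no listed one shares a whole seed), and the top of each marker list. The arm ratio, the shares of miR-202-3p, the microRNAs closest to it and the comparisons with other hairpins were added after seeing the data.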

Additional observations from a re-analysis of the deposited data

Results flagged for a closer look

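Of 58 groups of 4 mice examined (each diet, for the arms and for the microRNAs named with them), 6 held 1 mouse far from the other 3, by a gap to the nearest mouse above Dixon's critical value. Chance flags about 1 in 20 groups, here 2.90. In 5 of the 6 that mouse was M2W, which was above the other WD mice. It had 6856 CPM of miR-202-5p against 4081 to 4404 CPM, and 904 CPM of miR-101a-3p against 524 to 586 CPM. It had 140.3 CPM of miR-497-5p against 82.0 to 88.1 CPM, 2238 CPM of let-7g-5p against 1184 to 1261 CPM, and 154 CPM of let-7e-5p against 61.5 to 68.7 CPM. The microRNAs closest to miR-202-5p were picked for sharing its pattern, so these values are not separate from each other. In the SD mice, M1N had 40.8 CPM of miR-881-5p against 47.7 to 48.1 CPM in the other mice. Of the 8 libraries, that of M2W had the highest microRNA share, 12.7%.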

How the results depend on the processing

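The log2 fold change of miR-202-5p stayed positive and not called in each of 20 alternatives, from 0.15 without M2W to 0.54 with the replicate block. That of miR-202-3p was -0.73 and called against M1N and M2N alone, and 0.19 with a standard error of 0.21 against TN1 and TN2 alone. It ranged from -0.56 to -0.15 with 1 mouse left out. The values of miR-140-3p and let-7g-5p also changed sign against TN1 and TN2 alone, to 0.19 and 0.23, each with a standard error of 0.21. The 0 small RNAs at an adjusted p under 0.05 became 3642 with M1N and M2N as the only controls, 23 with TN1 and TN2 in their place, and 1176 with the replicate block, a fit to M1N, M2N, M1W and M2W only. These mice share only a number, and the correlation of their deviations from the group means was -0.06. The difference in the share of miR-202-5p was 0.119 points of all small RNA counts (exact permutation test, p = 0.0286, adjusted over 7 tests p = 0.200), and with 1 mouse left out of the microRNA share it ranged from 0.552 to 1.08 points. The difference in log2 arm ratio ranged from 0.40 without M1N to 0.83 without TN1, which leaves TN2 beside M1N and M2N. There the exact permutation test gave p = 0.0286, unadjusted. This is the smallest possible p, and it was the lowest of the fits with 1 mouse left out. The rank of miR-202-5p was 10 in M1N, 9 in M2N and 2 in M2W. The cause was not tested. Counting error was 4.12% to 6.73% of the value for miR-202-3p and at most 1.09% for miR-202-5p.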
